A study of Drosophila melanogaster with 2 samples.

Results

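CG18011 is a Drosophila melanogaster gene for a zinc finger protein, and most of the peaks found for its GFP fusion lie at transcript start sites. The peaks described here lie elsewhere, inside introns but still in the neighbourhood of a start site. They were taken from the list thresholded on IDR, the irreproducible discovery rate, a measure of agreement between replicates, by 3 conditions on the summit: more than 500 and at most 2000 bp from the nearest annotated start site of any gene, inside an annotated transcript, and in no exon. Of the list, 404 peaks met them, which is 12.3%, and the other 2886 did not. The 404 lay in introns of 351 host genes. No value of signal entered the choice beyond the threshold of the list itself.

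Chromatin had been immunoprecipitated from whole embryos 0 to 24 h old and of both sexes, taken from a stable transgenic line in which CG18011 carries eGFP at its C terminus, with an antibody against GFP. Chromatin was sonicated to fragments of 200 to 800 bp. The 2 biological replicates, 1 library each, form a single group, and no control library was analysed here. All tissues and stages of embryogenesis are therefore pooled, the transgene is present in both libraries, and a peak cannot be assigned to a cell type or a stage.

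The first introns of Drosophila genes are often long and hold many of the enhancers and alternative promoters known in this species. Zinc fingers of the C2H2 kind read DNA through an array in which successive fingers contact successive groups of bases, so that such proteins can recognise long sites. Because genes with several promoters start inside their own introns, an intronic position can lie upstream as well as downstream of a start site of its host gene.

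A set of 4069 peaks served as the comparison. These candidates lay in the list of the pooled libraries before the threshold, met the same conditions on position and overlapped no IDR peak. Each candidate was weaker than each of the 404 peaks, with signals of 38.5 to 178.5 against 179 to 21466. The signal is the deposited value of the authors' caller, with a scaling for depth that is not stated, so each comparison of this kind also sets strong peaks against weak ones.

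Certain short stretches of DNA at or near the summits were more frequent in the set than among candidates. Both kinds are shown before the values. A first pattern of 28 bases was learned on the 329 strongest IDR peaks outside the set, and it centres on CAGCTTTTG. It is shown here at 4 of the strongest intronic peaks, read 5′ to 3′ from the RefSeq sequence of Release 6 (dm6), with capitals for the bases that match the 15 leading positions of the pattern.
mwh: cgTAGCAggCAGCTTTTGtcaGaggttg
CG42674: cgTAGCtatCAGCTTTcGtgtGccttca
Kua: caaAGCcacCAGCTTTTGtttGcccacc
CG10237: tgTAcCAccCAGtTTTcGtcaGcatccg
The site in mwh lies at 3L:1206823-1206850 on the forward strand and matches 15 of the 15 positions. Those in CG42674 (3L:20186669-20186696), Kua (2L:20098374-20098401) and CG10237 (2L:19440047-19440074), all on the reverse strand, match 13, 13 and 12.

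A second pattern, learned on the 2886 IDR peaks outside the set, centres on CCACTGTGC. It usually lies to one side of the summit, so longer windows are shown, read along the strand of the site from 20 bases before the summit to 150 after it. The single capital marks the summit and the capital runs mark each copy of CACTGT, the 6 bases that were each present in over 95 percent of the sites.
schlank: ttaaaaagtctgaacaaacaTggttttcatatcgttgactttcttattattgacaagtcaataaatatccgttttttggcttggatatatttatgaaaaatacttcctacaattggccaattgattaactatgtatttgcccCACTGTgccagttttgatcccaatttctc
Csk: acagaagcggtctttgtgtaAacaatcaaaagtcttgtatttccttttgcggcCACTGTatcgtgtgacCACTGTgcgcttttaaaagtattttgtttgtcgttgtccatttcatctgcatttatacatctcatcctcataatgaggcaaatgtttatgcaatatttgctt
These are X:6265616-6265786 and 3R:11649658-11649828, both on the forward strand and within introns. The sites are centred 125 and 52 bp after the summit, and the window of Csk holds 2 copies of the core. The gene schlank encodes a ceramide synthase and Csk a kinase that inhibits Src family kinases.

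Signal was concentrated in few of the 404 peaks. The median was 279, with quartiles of 216 and 399, while 22 peaks lay above 1000 and the 20 strongest carried 40.8% of the summed signal. The median was close to that of all IDR peaks, 279.9. Of the intronic peaks 49.5% lay above it, against 52.8% of the 2033 IDR peaks within 500 bp of a start site (two-sided Fisher's exact test, odds ratio 0.877 with a 95% interval of 0.704 to 1.09, p adjusted over 4 comparisons = 0.231). They were stronger than the 475 IDR peaks in introns over 2000 bp from a start site, of which 38.1% lay above that median (odds ratio 1.59, 1.21 to 2.10, Fisher's exact test, adjusted p = 0.00324). Among the strongest 10 percent of the list, 329 peaks, there were 31, a share of 7.67% against 10.5% of the peaks at start sites and 4.42% of those deep in introns, and neither difference passed (Fisher's exact test, adjusted p = 0.136 and 0.0904).

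The strongest peak lay in CG42674 (FBgn0261556). It covered 3L:20185052-20187373, and its summit at 20186653 lay in intron 2, 1268 bp upstream of another start site of the same gene. Its signal was 4593 in replicate 1 and 16996 in replicate 2, and 21466 in the pooled list. The second, at 3L:1205940-1207384, lay in intron 3 of mwh (FBgn0264272), which restricts actin prehairs to one place in wing cells, and 521 bp upstream of the start of LysB, a lysozyme gene within that intron. It had 3349 in replicate 1, 14107 in replicate 2 and 17356 pooled. Both intervals reach over the start site next to them, which only 4 of the 404 do, and neither start site had an IDR summit of its own within 500 bp.

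The next peaks fell off quickly. The third lay in the first intron of alpha-Est10 (FBgn0015569), a carboxylesterase gene, at 3R:7491624-7492752 and 792 bp upstream of a start site of that gene, with 1642 in replicate 1, 7351 in replicate 2 and 8942 pooled. The fourth, in Cpr49Ae, a cuticle protein gene, lay 1559 bp downstream of its start site and had 1105 in replicate 1, 4345 in replicate 2 and 5418 pooled. The fifth, in the first intron of Kua, lay 524 bp downstream of the start site and had 931 in replicate 1, 3639 in replicate 2 and 4537 pooled. In all 5 the order of the signals was the same in both libraries. The sixth, in intron 4 of goe on X, had 695 in replicate 1, 3405 in replicate 2 and 4087 pooled, and it too kept its place in both.

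RasGAP1, which encodes an activator of the GTPase activity of Ras, held the seventh, with 553 in replicate 1, 2759 in replicate 2 and 3381 pooled. It stood beside a far stronger IDR peak of 12396 at the start site. The remaining peaks among the 20 strongest, in order of signal, lay in CG11050, ush, CG9812, CG10237, Lk6, CG32772, HmgZ, Trl, CG3168, CG9663, chif, CG31626 and CG11883, with pooled signals from 2518 down to 1088. The product of ush is a zinc finger cofactor of GATA factors, and the start site nearest to this peak is that of cbt, a gene for another zinc finger transcription factor, 1381 bp away. Lk6 encodes a kinase that acts on the cap-binding factor eIF4E, HmgZ an HMG box chromatin protein, Trl the GAGA factor, and chif a protein related to the Dbf4 subunit of the replication kinase. For CG9812 the nearest start site was that of CG30411. Of the 20 strongest peaks, 5 had an IDR summit within 500 bp of their nearest start site.

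**Figure D1:**
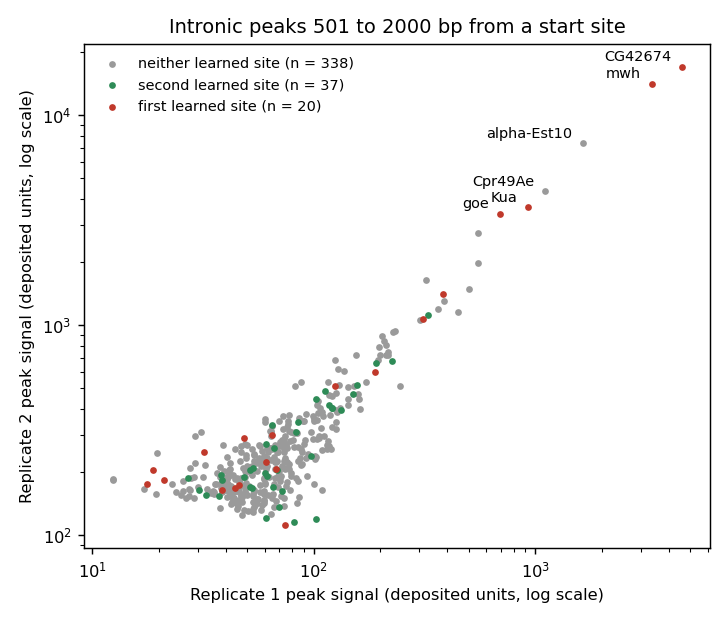
Signal of each intronic peak in replicate 1 (x axis) and replicate 2 (y axis), both in deposited units on log scales, for the 395 peaks covered by a peak of each library, coloured by the 2 learned sites described in the text. The points form 1 band along the diagonal, with CG42674, mwh and alpha-Est10 at its upper end. First-site peaks lie among the strongest and also in the lower part, and second-site peaks mostly in the middle and lower part.

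The 2 libraries ranked these peaks alike. A peak of replicate 1 covered 396 of the 404 summits and one of replicate 2 covered 403. Over the 395 covered by both, Spearman's rho was 0.707 and Pearson's r of the log10 signal 0.872, as a description across peaks that share their libraries and had already been selected for agreement. Values in replicate 2 were a median of 3.66 times those in replicate 1. After each library had been divided by its own median over IDR peaks, the SD of the 2 values had a median of 14.6% of their mean, and it exceeded 50 percent of the mean in 18 peaks. Of the 404 summits, 82.4% were covered when as many of the strongest peaks of replicate 1 were taken as the IDR list holds, and 93.1% with replicate 2. For the other IDR peaks these shares were 78.9% and 93.1% (Fisher's exact test, p adjusted over 2 comparisons = 0.203 and 1, two-sided). A peak of both top lists covered 306 summits and 1 summit was in neither.

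Members of the set lay closer to a start site than the candidates, although the conditions allowed the same range. The median distance was 980 bp against 1105 bp. A distance of 501 to 1000 bp was found for 209 peaks, 51.7%, against 42.3% of candidates (two-sided Fisher's exact test, odds ratio 1.46, 1.19 to 1.81, p adjusted over 10 features = 9.2e-04). With 1 peak counted per host gene this did not pass (odds ratio 1.21, Fisher's exact test, adjusted p = 0.142). At the lower bound, the peaks in CG5854, Pdp1 and CG18135 lay 502, 503 and 504 bp from a start site with signals of 248, 221 and 268. Just outside it, those in stv, CG42336 and east lay 491, 494 and 494 bp away with signals of 259.8, 179 and 196. At the upper bound, the peaks in kirre, tna and CG31760 lay at 1985, 1990 and 1994 bp with 285, 223 and 359. Beyond it, lncRNA:CR44320, CG9171 and CG11498 held peaks at 2001, 2007 and 2011 bp with 265, 310 and 301. Signals on the 2 sides of each bound were of the same order.

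The side of the start site also differed. Downstream lay 59.9% of the intronic peaks and 66.8% of candidates (odds ratio 0.743, Fisher's exact test, adjusted p = 0.0097). Without replicate 2 the side did not pass (odds ratio 0.842, Fisher's exact test, adjusted p = 0.126), nor did it beyond 1000 bp (0.990, adjusted p = 0.937). The excess upstream was greatest in the bin nearest to the lower bound. Within 501 to 750 bp upstream there were 66 peaks, 16.3% of the set, against 7.57% of candidates, while within the same distance downstream the shares were 15.6% and 14.9%. These bins were chosen after the values had been seen and were not tested. The nearest start site belonged to the host gene in 346 cases, of which 112 lay upstream and 234 downstream of it, and to another gene in 58.

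**Figure D2:**
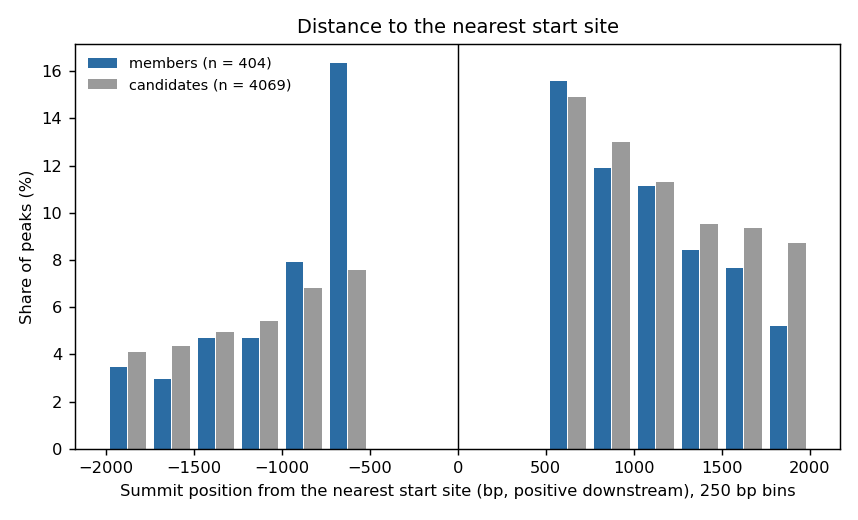
Share of the 404 intronic peaks (blue) and of the 4069 candidates (grey) by position of the summit from the nearest start site, in 250 bp bins, with positive values downstream and the span within 500 bp empty by definition. The bar 501 to 750 bp upstream stands at 16.3% against 7.57%, and the bars beyond 1500 bp are lower in the set than among candidates on both sides.

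Of 10 features of position, composition and neighbourhood, 9 passed the test, and 4 did so against candidates among the 10000 strongest pooled peaks, which were distance, side, X and GC content. First introns held 81.7% of the set and 76.2% of candidates (odds ratio 1.40, Fisher's exact test, adjusted p = 0.0128). A summit counted here if it lay in the first intron of any annotated transcript, even where another transcript placed it in a later intron. The start site was that of the host gene in 85.6% against 80.5% (odds ratio 1.45, Fisher's exact test, adjusted p = 0.0128) and that of a protein-coding gene in 93.6% against 89.6% (odds ratio 1.69, adjusted p = 0.0128). With 1 peak counted per host gene the start site of the host gene turned to an odds ratio of 0.956 and the protein-coding start site had 1.26, and neither passed (Fisher's exact test, adjusted p = 0.802 and 0.436). Summits within 200 bp of an exon edge made up 9.90% against 16.9% (odds ratio 0.540, 0.376 to 0.759, exact test, adjusted p = 8.5e-04). Without replicate 2 exon edges did not pass (odds ratio 0.810, Fisher's exact test, adjusted p = 0.209). The length of the intron was the feature that did not pass: introns of 5000 bp or more held 46.8% of each (odds ratio 1.00, exact test, adjusted p = 1), with a range in the set from 140 to 105464 bp. With 1 peak counted per host gene, long introns did pass, as more frequent in the set (odds ratio 1.80, Fisher's exact test, adjusted p = 2.1e-06). That count kept 351 of the 404 members, while the 4069 candidates lay in at most 2105 host genes. Repeated peaks of a gene were thus dropped mostly on the candidate side, and the 2 odds ratios do not compare the same candidates.

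Base composition differed most. Windows of 100 bp to each side of the summit had a GC content of at least 40 percent in 102 of the intronic peaks, 25.2%, and in 48.8% of candidates (odds ratio 0.354, 0.278 to 0.448, Fisher's exact test, adjusted p = 2.6e-19). The median GC content was 35.6% against 39.8%. IDR peaks deep in introns had 28.8% of windows at or above this level, not past the test (Fisher's exact test, odds ratio 0.833, p adjusted over 6 comparisons = 0.305), and those at start sites 33.0% (odds ratio 0.686, adjusted p = 0.00346).

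The X chromosome held 101 of the 404 peaks, 25.0%, against 18.5% of candidates (odds ratio 1.47, 1.15 to 1.88, Fisher's exact test, adjusted p = 0.00437). The share among IDR peaks at start sites was 14.3% (Fisher's exact test, odds ratio 2.00, p adjusted over 6 comparisons = 7.1e-07), while among those deep in introns it was 24.0% (odds ratio 1.06, adjusted p = 0.753). Arm 3R held 102 peaks, 2R 70, 3L 66 and 2L 65, and arm 4 held 0 of the set and 24 candidates. With 1 peak counted per host gene, the difference from candidates on X did not pass (odds ratio 1.34, Fisher's exact test, adjusted p = 0.0572), nor did it among windows under 40 percent GC (odds ratio 1.32, adjusted p = 0.0836) or within 1500 bp of the start site (odds ratio 1.25, adjusted p = 0.147).

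**Figure D3:**
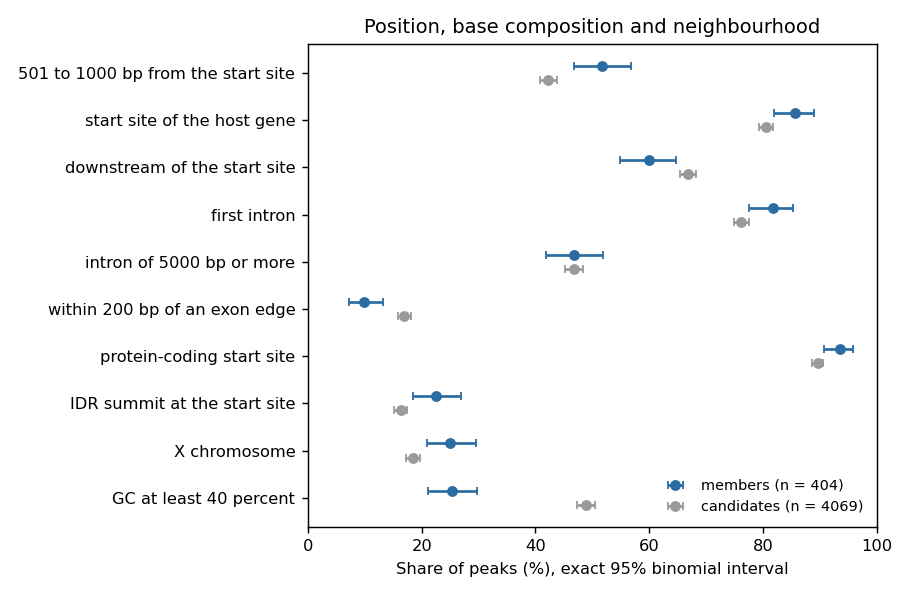
Share of the intronic peaks (blue) and candidates (grey) with each of 10 features, with exact 95% binomial intervals as bars. The intervals of set and candidates stand apart for 9 features, by most for GC content, at 25.2% against 48.8%, and coincide for intron length, at 46.8% in both.

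Many of the start sites next to these peaks had no reproducible peak of their own. An IDR summit within 500 bp of the nearest start site accompanied 91 of the 404 peaks, 22.5%, against 16.3% of candidates (odds ratio 1.49, 1.15 to 1.92, Fisher's exact test, adjusted p = 0.00437). This comparison depends on how candidates were defined, since none could overlap an IDR peak, one at the start site included. With candidates over 1000 bp from any IDR peak the odds ratio was 2.75. Against candidates among the 10000 strongest pooled peaks the difference did not pass (odds ratio 1.19, Fisher's exact test, adjusted p = 0.347). In 48 of the 91 the intronic peak was the stronger. The other 313 had none, and their median signal was 274 against 295 where there was one. The next IDR summit of any kind was a median of 3388 bp away and over 1000 bp away for 315 peaks. Only 5 shared their interval with another IDR peak.

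Some host genes held several of these peaks. There were 43 such genes, led by CG1677 and Tlk with 4 each, and followed by CG9837, CHES-1-like, Kank, SNF4Agamma, Trl and dlg1 with 3 each. Tlk encodes a kinase of chromatin assembly, SNF4Agamma a subunit of the AMP-activated kinase and dlg1 a scaffold of septate junctions and synapses. In Trl the peaks lay 1520, 1236 and 673 bp from a start site, with signals of 1453, 295 and 226, so the first stood well above the others. In dlg1 the neighbouring summits X:11390893 and X:11391093 had the same replicate 1 signal, 41.8, so they may not be separate peaks. Peaks of 1 gene share its sequence composition and its promoters and are not independent of each other.

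Known core promoter and transcription factor motifs seldom told the set from candidates. Of 24 motifs searched on both strands within 100 bp of the summit, 1 passed. This was TATAAAA, the TATA box, in 69 peaks, 17.1%, against 10.2% of candidates and 10.4% of all pooled summits (odds ratio 1.81, 1.35 to 2.41, Fisher's exact test, p adjusted over 24 motifs = 0.00167). It was in 40 of the windows centred 1000 bp to the left of the same summits (exact McNemar test, two-sided, p adjusted over 24 motifs = 0.046). A run of 8 A was the other motif to pass that test, in 72 windows at the summit and 39 to the left (exact McNemar test, adjusted p = 0.0284). Against windows 1000 bp to the right neither passed (exact McNemar test, adjusted p = 0.0805 for TATAAAA and 0.660 for the A run). When candidates were limited to the 10000 strongest pooled peaks, or both sides to windows under 40 percent GC, TATAAAA did not pass (Fisher's exact test, odds ratios 1.63 and 1.50, adjusted p = 0.0878 and 0.203), nor within 200 bp of the summit (odds ratio 1.32, adjusted p = 0.206). As both motifs consist of A and T, the low GC content of the summits moves with them.

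No other motif passed within 100 bp of the summit. GAGAGAG, bound by the GAGA factor, was in 5.69% against 4.42% there (Fisher's exact test, adjusted p = 0.790) and is held by 3.88% of all pooled summits. Within 200 bp it was the motif that passed, as more frequent in the set (odds ratio 2.44, Fisher's exact test, adjusted p = 4.8e-08). TATCGATA, the DNA replication-related element of promoters, was in 1 of the 404 peaks against 0.467% of candidates and 2.30% of all pooled summits. CAGCTG was in 7.92% against 8.33%, CAGGTAG, bound by Zelda, in 1 peak against 1.16%, and TAATTA, a homeodomain core, in 16.1% against 14.2% (adjusted p of these Fisher's exact tests from 0.593 to 1). A match or its absence describes the letters in a window and not the binding of the factor.

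The first learned site was more frequent in the set than among candidates, and within the set more frequent in strong members, though most of these lacked it. A score passed by 2 percent of candidates elsewhere was reached by 20 of the 404 peaks, 4.95%, and by 46 of 4069 candidates, 1.13% (two-sided Fisher's exact test, odds ratio 4.55, 2.52 to 7.95, p adjusted over 4 comparisons = 2.7e-06). Against candidates among the 10000 strongest pooled peaks the odds ratio was 2.40 (Fisher's exact test, p = 0.00783). In windows 1000 bp to the left of the summits it was reached by 3 (exact McNemar test, two-sided, p = 4.9e-04). In 19 of the 20 the site was centred within 50 bp of the summit, at a median of 22 bp. Within the set, the site was in 6 of the 31 peaks that belong to the strongest 10 percent of the IDR list and in 14 of the other 373 (odds ratio 6.10, 1.77 to 18.8, Fisher's exact test, adjusted p = 0.003). The median signal was 316 in members with the site and 277 in those without it.

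Among weaker peaks this site was about as frequent in the set as in the other IDR peaks. Of IDR peaks weaker than those on which the pattern was learned, 14 of 372 in the set had it, 3.76%. Outside the set 96 of 2557 did, 3.75% (odds ratio 1.00, 0.522 to 1.79, Fisher's exact test, adjusted p = 1). The candidates of the class had it less often than these weaker members, in 1.13% (odds ratio 3.42, 1.72 to 6.40, Fisher's exact test, adjusted p = 6.4e-04). The site was in CG42674, mwh, Kua, goe, CG10237 and CG3168 among the 20 strongest, and not in alpha-Est10, Cpr49Ae or RasGAP1. In goe it matched 11 of the 15 leading positions and in CG3168 also 11, fewer than in mwh with 15.

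The second learned site was more frequent. A word of this site had first been noticed in the 404 peaks themselves, before the pattern was learned on the others, so the comparison with candidates is not independent of the peaks that prompted it. It was found within 150 bp of the summit in 37 of the 404 peaks, 9.16%, and in 105 candidates, 2.58% (two-sided Fisher's exact test, odds ratio 3.80, 2.50 to 5.68, p adjusted over 4 comparisons = 4.9e-09). Against candidates among the 10000 strongest pooled peaks the odds ratio was 2.07 (Fisher's exact test, p = 0.00176). The other IDR peaks, on which it had been learned and which are thereby favoured, had it in 5.16% (odds ratio 1.85, 1.23 to 2.72, Fisher's exact test, adjusted p = 0.00507). The 37 peaks lay in 37 host genes. Of these peaks 14 were on X, 37.8% against 25.0% of the whole set, and 29 in first introns, 78.4% against 81.7%. Their median GC content of 36.3% was near that of the set, and among windows under 40 percent GC the odds ratio was 3.41 (Fisher's exact test, p = 3.5e-06).

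Its place in the peak was directed. Read along its own strand, the site lay after the summit in 34 of the 37 peaks (exact binomial test against equal shares, two-sided, p = 1.2e-07), at a median of 89 bp with quartiles of 50 and 109 bp. Among the other IDR peaks it lay after the summit in 129 of 149, with a median of 68 bp. Among candidates it did so in 78 of 105, with a median of 39 bp, a smaller share than in the set (odds ratio 3.89, 1.08 to 21.4, Fisher's exact test, adjusted p = 0.0443). The strand of the site was that of the host gene in 19 of the 37 (exact binomial test, two-sided, p = 1). In windows of 50 bp to each side of the summit, which had to hold the whole site and not only its centre, it was in 3 peaks of the set and 30 candidates. There the test did not pass (odds ratio 1.01, Fisher's exact test, p = 1).

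**Figure D4:**
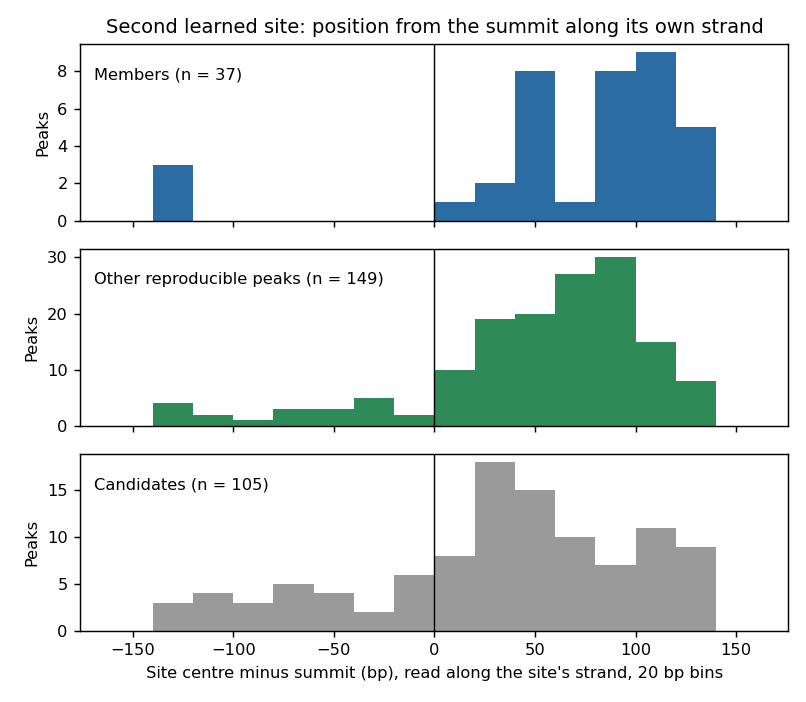
Number of peaks by distance of the second learned site from the summit, in 20 bp bins, read along the strand of the site, for the 37 intronic peaks, the 149 other IDR peaks and the 105 candidates that have it. Sites lie mostly to the right of 0, in 34 of 37, 129 of 149 and 78 of 105 peaks, and most of those in the intronic peaks lie between 40 and 140 bp.

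Peaks with the second site were spread over the range of signal below the strongest. Signals of these peaks lay between 181 and 1453, median 263, and Trl, at 1453, was the only 1 among the 20 strongest members. The next were CG31635 at 893 and for, the gene of a cGMP-dependent kinase, at 854, both with the site after the summit at 97 and 109 bp. In the strongest 10 percent of the IDR list 3 of 31 members had it and elsewhere 34 of 373 (odds ratio 1.07, Fisher's exact test, adjusted p = 0.755). None of the 404 peaks had both sites, and 347, 85.9%, had neither.

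**Figure D5:**
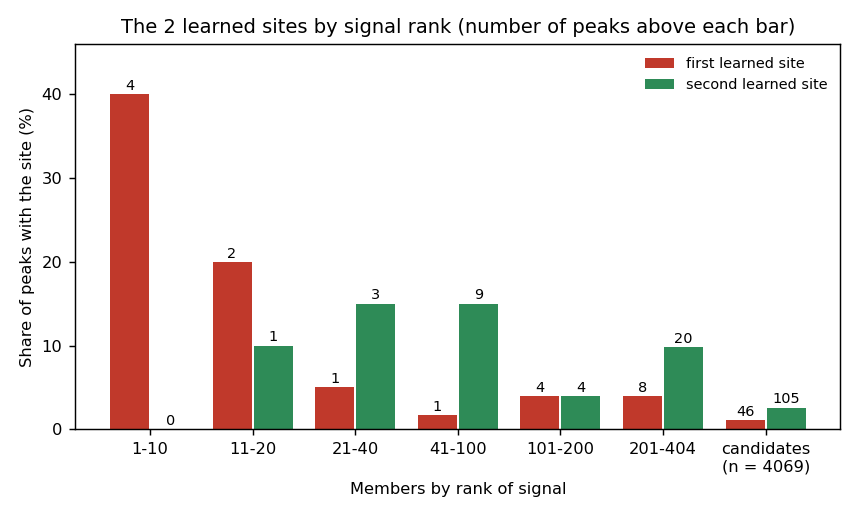
Share of the intronic peaks with the first (red) and the second (green) learned site, by rank of signal within the set, with the candidates at the right and the number of peaks above each bar. The first site is in 4 of the 10 strongest, 2 of the next 10, 1 of the next 20, 1 of the next 60, 4 of the next 100 and 8 of the last 204. The second is in 0 of the 10 strongest, 1 of the next 10, 3 of the next 20, 9 of the next 60, 4 of the next 100 and 20 of the last 204.

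Some peaks held several copies of the core CACTGT. Within 150 bp of the summit 37 of the 404 peaks, 9.16%, held 2 or more copies on either strand, against 2.19% of candidates and 4.61% of the other IDR peaks, and 17 of these also had a second site by score. A single copy was found in 21.5% of the set, 14.5% of candidates and 18.1% of other IDR peaks. The highest number was 4. The count of copies was chosen after these windows had been read, and the shares are given without a test.

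Words of 8 bases were also tested without a matrix. Of the 20 words that best told IDR peaks from candidates away from start sites and outside the set, 14 were more frequent in the set than in its candidates (Fisher's exact test, adjusted over 20 words), 7 in windows under 40 percent GC and 1 against candidates among the 10000 strongest pooled peaks. Many of the 14 are overlapping pieces of the second learned site, on either strand, and are not separate results. Among them were CACTGTGC, in 27 peaks against 1.87% of candidates (odds ratio 3.76, Fisher's exact test, adjusted p = 4.1e-06), and ACTGTACC, in 12 peaks against 0.565% (odds ratio 5.38, adjusted p = 1.5e-04). Against the 10000 strongest neither passed (Fisher's exact test, adjusted p = 0.0547 and 0.0603). ATATTTTA was in 37 peaks against 4.03% (odds ratio 2.40, exact test, adjusted p = 1.4e-04). The word AGCTTTTG, the core of the first site and the best of the 20, was in 8 peaks against 1.40% and did not pass (odds ratio 1.42, exact test, adjusted p = 0.473). Of the 20 words that ranked best at start sites, 13 passed in the set, and 12 of the 13 consist of A and T alone, as do 16 of the 20.

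Host genes covered many functions, and a share of genes with a reproducible peak is read against the whole class. Of all 29999 pooled peaks on the arms, 11.0% were in the IDR list, and of the 2105 genes that held any pooled peak in such an intronic position, 16.7% held one of the 404. Of the members and candidates together, 9.03% were members. A host with more pooled peaks of the class had more chances to hold a member, so shares of hosts and of peaks can differ. The lists below were written by function, and no test was made of them.

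Genes of RNA-binding and translation regulators had a reproducible intronic peak in 11 of 28 hosts with any, led by brat, a translational repressor in neural stem cells, with a signal of 160 in replicate 1, 443 in replicate 2 and 602 pooled. The neuronal RNA-binding gene elav followed with 49.8, 268 and 327 in the same order. Chromatin regulators had one in 7 of 21, led by Trl with 327, 1115 and 1453 and wde, whose product is a cofactor of a histone H3 lysine methyltransferase, with 216, 719 and 931. These hosts make up 39.3% and 33.3%, above the 16.7% of all such hosts, on small counts. Counted as peaks, the lists hold 2.97% and 2.23% of the set and 1.89% and 0.737% of candidates.

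Kinases, phosphatases and regulators of small GTPases had one in 19 of 64 hosts, 29.7%. As peaks these genes made up 5.45% of the set and 3.93% of candidates. The strongest were for, with 191 in replicate 1, 663 in replicate 2 and 854 pooled, and Btk, a Tec family tyrosine kinase, with 127, 473 and 596. Proteins of actin, myosin, microtubules and muscle had one in 13 of 49, 26.5%, and as peaks made up 3.47% of the set and 2.70% of candidates. Here Dhc64C, the heavy chain of cytoplasmic dynein, had 548 in replicate 2 and 670 pooled with no peak of replicate 1 over its summit, and tsr, the cofilin gene, had 104, 382 and 485. The single library behind Dhc64C makes its rank less certain than that of tsr.

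Patterning transcription factors and the signalling pathways each had one in 12 of 47 hosts, 25.5%. Counted as peaks, the patterning factors made up 3.96% of the set and 3.44% of candidates. The signalling pathways made up 2.97% and 3.17%, so as peaks they were not above the candidates. The factor ush had 504 in replicate 1, 1492 in replicate 2 and 1958 pooled, and jumu, a winged helix factor, had 115, 269.5 and 379. The insulin receptor gene InR had 77.5, 373 and 449, and neur, a ubiquitin ligase gene of the Notch pathway, 63.6, 313 and 381. Axon guidance and adhesion genes, with 5 of 41, and channels, transporters and synaptic proteins, with 5 of 43, had the lowest shares, 12.2% and 11.6%, both below the 16.7%. As peaks these 2 lists made up 1.24% and 1.73% of the set and 2.06% of candidates each. Their strongest were the netrin receptor gene fra, with 59.8, 239 and 296, and kirre, an adhesion molecule of muscle founder cells, with 31.9, 250.1 and 285. For the channels these were KCNQ, a potassium channel, with 121, 406 and 517, and Irk1, an inward rectifier, with 73.7, 225 and 294.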

How the data were processed

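The authors deposited peak lists in narrowPeak format with a signal per peak, from each library, from the pooled libraries and after the IDR threshold. The lists on dm6 were used and those on dm3 were not. The peak caller, its settings, the IDR threshold and the number of reads are not stated in the labels or files, and a signal therefore has no counting interval here. Start sites, exons and introns came from Ensembl release 115 (gene models 6.54, transposable element insertions left out), and sequence from RefSeq. Candidates overlapped no IDR peak by 1 bp or more. Shares were compared by Fisher's exact test, two-sided, adjusted after Benjamini and Hochberg within each family, and the exact 95% intervals cover counting error only. Peaks are the units of these tests, since the 2 libraries form 1 group. In each library the peak over a summit was the one with the nearest summit of its own.

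The first pattern started from the word AGCTTTTG in the 329 strongest IDR peaks outside the set, the second from ACTGTACC in all 2886, and both were refined in 8 rounds on the best match per peak. The window of 150 bp for the second was set after the data had been seen, as were both patterns and the comparisons with other IDR peaks. Members, gene lists and motifs were chosen with earlier results of these data known. Genes named are the hosts of the 20 strongest members, of the 2 strongest members of each list, of those nearest to the bounds and of those whose sequence is shown; CG31635 and genes with 3 or more members were named after their values had been seen. Alternatives were other bounds, candidates, windows, thresholds and each replicate left out. Fisher's tests, the ranking of words and the learning of a pattern were tried on simulated data, and the other steps were not. The simulated site did not vary between sequences, unlike both learned patterns. Python 3.11.15, numpy 2.4.6, pandas 2.3.3, scipy 1.17.1 and matplotlib 3.10.9 were used.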

Additional observations from a re-analysis of the deposited data

How the results depend on the processing

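The count of features past the test, 9 of 10, was 2 with a lower bound of 1000 bp, 4 with the 1645 strongest IDR peaks, 4 against candidates among the 10000 strongest pooled peaks and 5 in windows under 40 percent GC, and fewer peaks entered each of these. With 1 peak per host gene the odds ratio turned to 0.956 for the start site of the host gene and to 1.80 for long introns, the latter past the test. The motif count of 1 was 0 under the same 4 changes and with 1 peak per host gene, and in windows of 200 bp the motif that passed was GAGAGAG in place of TATAAAA, and the 2 motifs above the left flank were 0 against the right flank. Words from start sites that passed, 13 of 20, were 26 with the 50 best and 5 under 40 percent GC, where CAGCCCTG turned to an odds ratio of 0, and words from elsewhere, 14, were 7 there and 1 against the 10000 strongest. Leaving out a replicate gave 7 to 8 features (host start site lost without replicate 1, side and exon edge without replicate 2) and 1 motif, 1 signal difference each time, and odds ratios of 2.85 to 3.90 for the CAGCTTTTG site and 3.45 to 3.83 for the CCACTGTGC site. These sites kept direction and test under the other alternatives (odds ratios 2.00 to 6.78 and 2.07 to 5.30), except CCACTGTGC in windows of 50 bp (1.01). With transposable elements as genes there were 417 members. Counts of reads are unknown, and the weakest members lie at the edge of the list.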
